A study of Mus musculus with 16 samples.

Results

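Accessible chromatin was examined at the genes for matrix metalloproteases (MMPs), their tissue inhibitors (TIMPs) and the ADAMTS proteases in pancreatic ductal adenocarcinoma (PDAC) cells taken from the pancreas, the liver and the lungs. The gene list held 42 members. A peak belonged to a member when the nearest protein-coding transcription start site to its midpoint, within 100 kb in the GENCODE basic annotation of mm10, was that of the gene. This rule gave 281 of 136630 nuclear peaks and covered 41 of the 42 genes (Adamts19 was not analysed here). Peaks were assigned to the genes by position only, whereas the gene list itself was drawn up with earlier results of these data known.

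Chromatin accessibility was measured by ATAC-seq, in which a transposase cuts and tags open DNA, in 16 samples of mKate2+ tumour cells isolated by cell sorting, each from a separate mouse. All groups came from one kind of tumour cell, mouse KC-shSmad4 PDAC cells with Ptf1a-Cre, the RIK allele (rtTA3 with the red reporter mKate2) and the CHC cassette with a doxycycline-inducible Smad4 shRNA. Cells were injected into 6- to 8-week-old female Foxn1nu nude mice, into the pancreas for primary tumours, into the spleen for liver metastases and into the tail vein for lung metastases. In the Smad4 OFF groups the hosts stayed on doxycycline (Panc_OFF, n = 3; Liv_OFF, n = 2; Lung_OFF, n = 3), and in the Smad4 ON groups doxycycline was withdrawn for 14 days from week 4 in the pancreas, week 5 in the liver and week 6 in the lungs, whose columns in the table are named d15 (Panc_ON, n = 3; Liv_ON, n = 2; Lung_ON, n = 3). The Smad4 OFF controls carried the same alleles and the same shRNA. Limits of the model were the nude hosts, which lack mature T cells, the injected rather than spontaneous metastases, and a collection time that differed with the organ, so that organ and time since injection cannot be told apart. Accessibility does not read the knockdown itself, so the Smad4 state of each sample rests on its label.

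MMPs are zinc proteases that cut collagens, gelatin, laminin, proteoglycans and other proteins of the extracellular matrix and of the cell surface. Most are secreted as inactive proenzymes, the membrane-type members are anchored to the cell, and TIMPs block the active site. ADAMTS proteases are secreted, bind the matrix through thrombospondin repeats, and include enzymes that cut aggrecan and versican and enzymes that trim the amino-terminal propeptides of fibrillar procollagens. Several MMP genes sit in a cluster, on chromosome 9 in the mouse. An AP-1 element (bound by FOS and JUN proteins) just upstream of the start site is a textbook feature of several MMP genes, but not of all.

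That element is shown here because most peaks of the cluster differed between organs. RefSeq promoter windows (250 bases before to 50 bases after the start, GRCm38.p6, the build of mm10) were found for 28 of the 42 members in 31 promoters. The letters TGANTCA, which read alike on both strands, occurred in 6 of the 31 promoters (19.4%), against 7.81% of the 32851 promoters in the table, and each of the 6 genes lies in the chromosome 9 cluster. Mmp8, the other member gene of the cluster, had a promoter window without these letters. Within the last 100 bases before the start these letters were found in the same 6, against 2.73% of the promoters in the table. No match overlapped another motif searched. The 100 bases before each start are printed below in the order of the genes along the chromosome, on the plus strand, with the AP-1 letters in capitals.
Mmp13, chr9:7272414-7272513: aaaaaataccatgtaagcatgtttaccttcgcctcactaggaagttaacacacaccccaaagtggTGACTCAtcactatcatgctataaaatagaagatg
Mmp12, chr9:7347274-7347373: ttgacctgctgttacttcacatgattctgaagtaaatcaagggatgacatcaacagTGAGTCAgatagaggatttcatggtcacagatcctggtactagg
Mmp3, chr9:7445722-7445821: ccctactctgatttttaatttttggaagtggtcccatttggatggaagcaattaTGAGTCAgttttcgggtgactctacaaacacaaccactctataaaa
Mmp10, chr9:7502242-7502341: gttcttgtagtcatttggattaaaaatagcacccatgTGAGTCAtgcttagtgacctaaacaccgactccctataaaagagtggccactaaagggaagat
Mmp20, chr9:7628131-7628230: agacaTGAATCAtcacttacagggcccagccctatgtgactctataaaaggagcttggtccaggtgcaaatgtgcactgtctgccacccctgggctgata
Mmp7, chr9:7691990-7692089: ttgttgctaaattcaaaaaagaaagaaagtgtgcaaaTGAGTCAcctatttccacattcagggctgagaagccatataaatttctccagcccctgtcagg
These letters, in which the search allowed any middle base, began between 35 and 95 bases before the start site. The farthest match, in Mmp20, read TGAATCA. All the others read TGACTCA or TGAGTCA and began 35 to 63 bases before the start. A peak of the table lay over the match in Mmp13, Mmp3, Mmp10 and Mmp7, whereas no peak covered it in Mmp12 and Mmp20.

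Of all Mmp13 and Mmp8 peaks, the one with the smallest p-value between liver and lung lay further out, 8.68 kb upstream of the Mmp13 start (chr9:7261346-7263831, intergenic). Its central 200 bases held 1 AP-1 match. The central 200 bases of the Mmp15 start-site peak, which was higher in the liver, held no match to AP-1, RUNX (TGTGGT) or KLF (GGGNGTGG) on either strand. Both were among 8 peaks read in this way, which held 1 AP-1 match in all and no RUNX or KLF match. Over all nuclear peaks, the central 200 bases matched AP-1 in 28.1%, RUNX in 19.8% and KLF in 7.70%. Over member peaks the shares were 26.7%, 21.7% and 7.83%, so 8 peaks are too few to compare with them. Peaks of Timp2, Adamts14, Adamts7, Mmp19 and Adamts1, all lower in the liver, held no AP-1 match. That of Mmp28, which was higher, held none either.
Mmp13, chr9:7262489-7262688: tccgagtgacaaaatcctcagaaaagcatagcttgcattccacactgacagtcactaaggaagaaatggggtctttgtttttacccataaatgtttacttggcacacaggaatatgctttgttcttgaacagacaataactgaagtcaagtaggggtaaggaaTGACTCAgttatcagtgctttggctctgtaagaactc
Mmp15, chr8:95353263-95353462: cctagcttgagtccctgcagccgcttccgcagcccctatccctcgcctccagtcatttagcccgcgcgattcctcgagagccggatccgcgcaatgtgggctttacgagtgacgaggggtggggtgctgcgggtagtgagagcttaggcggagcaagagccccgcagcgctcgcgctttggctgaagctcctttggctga
Both are on the plus strand of GRCm38.p6.

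Reads in peaks numbered between 22994669 and 38218315 per sample, and a median peak held between 36 and 76 reads. The lowest medians were those of Liv_OFF, 40 and 36 reads. They were 64, 45 and 60 in Lung_OFF and 63, 62 and 64 in Panc_OFF. The part of this lower coverage in low liver counts was not tested. Tests were made with limma on log2(normalised count + 1) over all 136630 peaks, and a peak was called at an absolute log2 difference of at least 0.58 and a Benjamini-Hochberg adjusted p of at most 0.1. Each value below is a normalised count of a peak, or, where named a locus sum, the normalised counts of all peaks of a gene added together. Summed start-site signal of 6 epithelial tumour markers was between 14794 and 45319 in every sample and was highest in the liver. Marker start sites of other cells were low beside it, and hepatocyte, acinar and lung epithelial lists had a start-site peak for only 1 gene each. The hepatocyte peak (Ttr) ran from 164 to 242 in the liver, 20.4 to 96.5 in the pancreas and 52.5 to 96.7 in the lungs. The acinar peak (Cela1) ran from 288 to 490 in the liver, 54.2 to 126 in the pancreas and 81.2 to 164 in the lungs. The lung epithelial peak (Ager) was between 14.2 and 59.9 in every sample. The fibroblast list (5 of 5 genes) ran from 470 to 1206 in the pancreas, 103 to 205 in the liver and 147 to 437 in the lungs. The leukocyte list (2 of 6 genes, with Ptprc, Spi1, Itgam and Lyz2 lacking a start-site peak) ran from 460 to 796 in the liver, 215 to 291 in the pancreas and 291 to 420 in the lungs. The endothelial list (3 of 5 genes) stood at 745 in Lung_OFF 1, against 55.9 to 185 in the other 15 samples.

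Between the metastatic sites with Smad4 OFF, member peaks were more often lower than higher in the liver. Of the 281 peaks, 115 were lower and 45 higher in Liv_OFF than in Lung_OFF, where 26.8% of all peaks were called lower, 22.9% higher and 49.7% in either direction. The median difference over the members was -0.67 on the log2 scale, against 0.00 over all peaks. Peaks of 18 genes were called only lower, those of 5 genes only higher, those of 10 genes in both directions, and 8 genes had no called peak. In bulk samples fewer cells with an open site and a less open site in each cell cannot be told apart. Without Lung_OFF 1, 106 member peaks were lower and 30 higher. Procollagen N-proteinases (25 of 32 peaks lower, 1 higher) and collagenases (11 of 12 lower) had the lowest medians, -2.17 and -2.06. The other ADAMTS genes had 25 of 53 lower and 4 higher, and the stromelysins 8 of 12 lower with none higher. Membrane-type MMPs (8 higher and 7 lower of 26) and proteoglycanase ADAMTS genes (16 higher and 16 lower of 64) held members of both kinds.

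**Figure D1:**
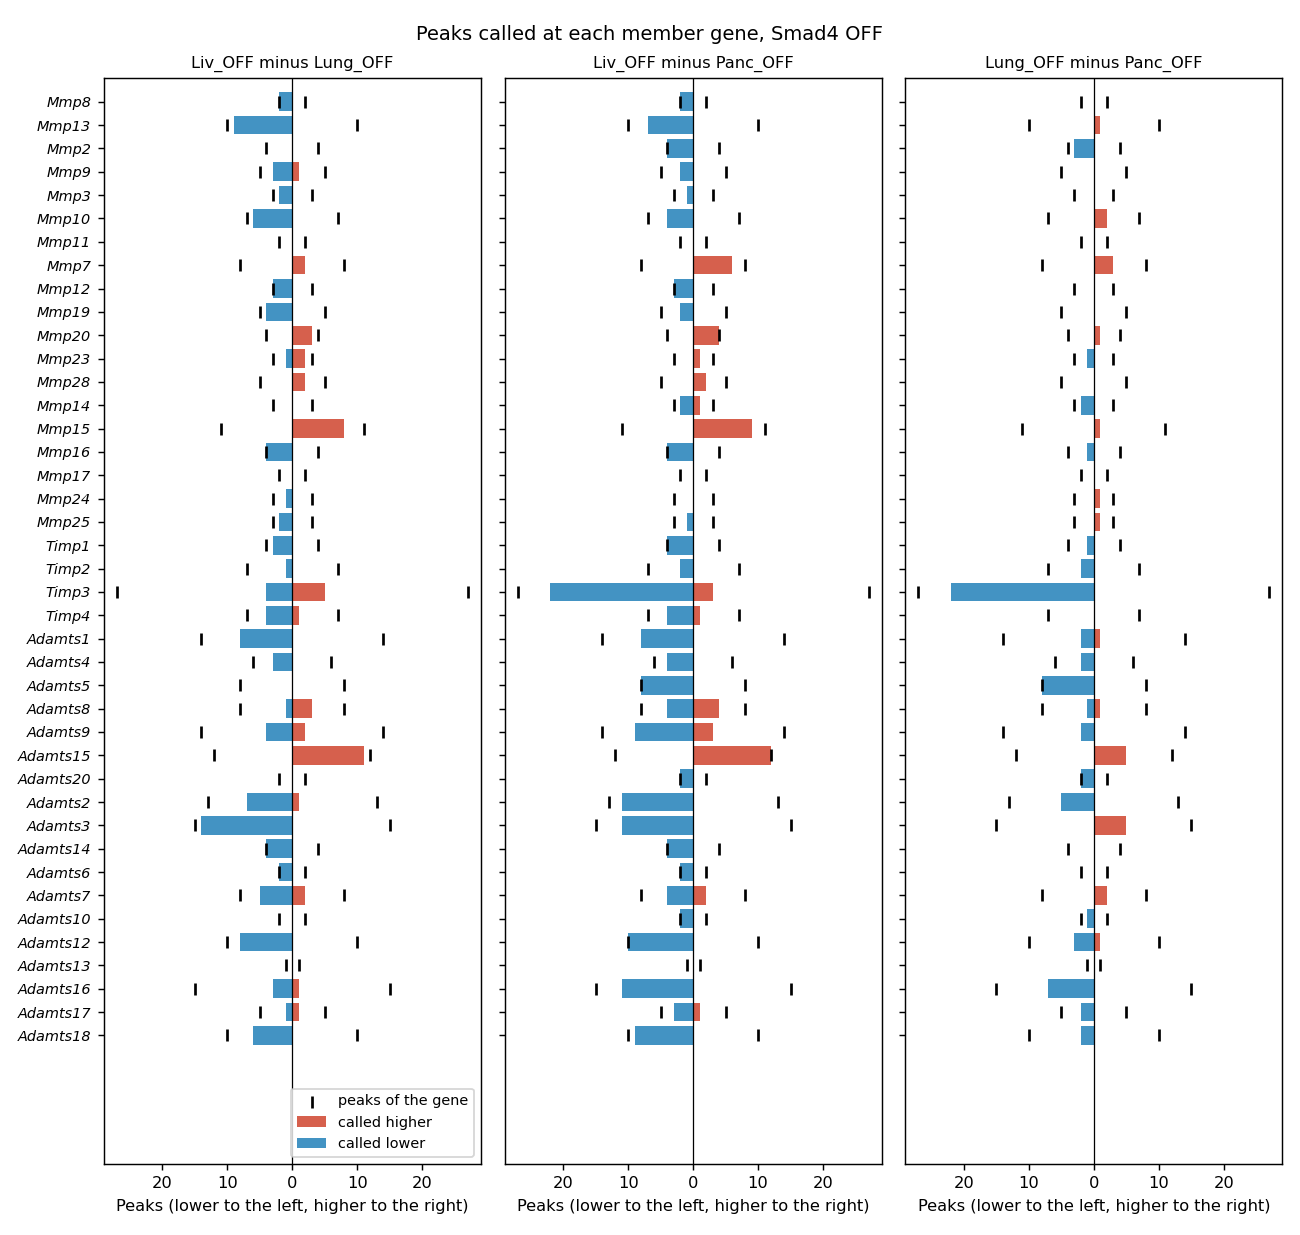
Number of peaks called higher (right) and lower (left) at each of 41 member genes in the 3 Smad4 OFF organ comparisons, with black ticks at the number of peaks of the gene on either side. Adamts3 had 14 of 15 peaks lower and Adamts15 11 of 12 higher in Liv_OFF than in Lung_OFF, and 22 of 27 Timp3 peaks were lower in each metastatic site than in Panc_OFF.

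The collagenases, stromelysins and neighbours on chromosome 9 showed opposite differences at the ends of the cluster. From Mmp13 through Mmp12, Mmp3 and Mmp10 to Mmp8, 22 of 25 peaks were lower in Liv_OFF than in Lung_OFF and none was higher (median -2.07). At the other end, Mmp20 and Mmp7 had 5 of 12 peaks higher and none lower (median 0.99), in the same comparison. Mmp27, which lies between and was not on the member list, had 1 of 4 peaks higher. The division into ends was drawn after the values were seen and received no test. Against Panc_OFF, 17 of 25 peaks were lower at the Mmp13 end and 10 of 12 higher at the Mmp20 and Mmp7 end, where 32.3% of all peaks were lower and 26.2% higher. Both liver comparisons share the Liv_OFF samples. Between Lung_OFF and Panc_OFF, 3 of 25 and 4 of 12 peaks were higher (6.59% of all peaks) and none was lower. Broad signal of other genes' peaks within 5 Mb of Mmp13 differed by 0.11 between Liv_OFF and Lung_OFF on the log2 scale.

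**Figure D2:**
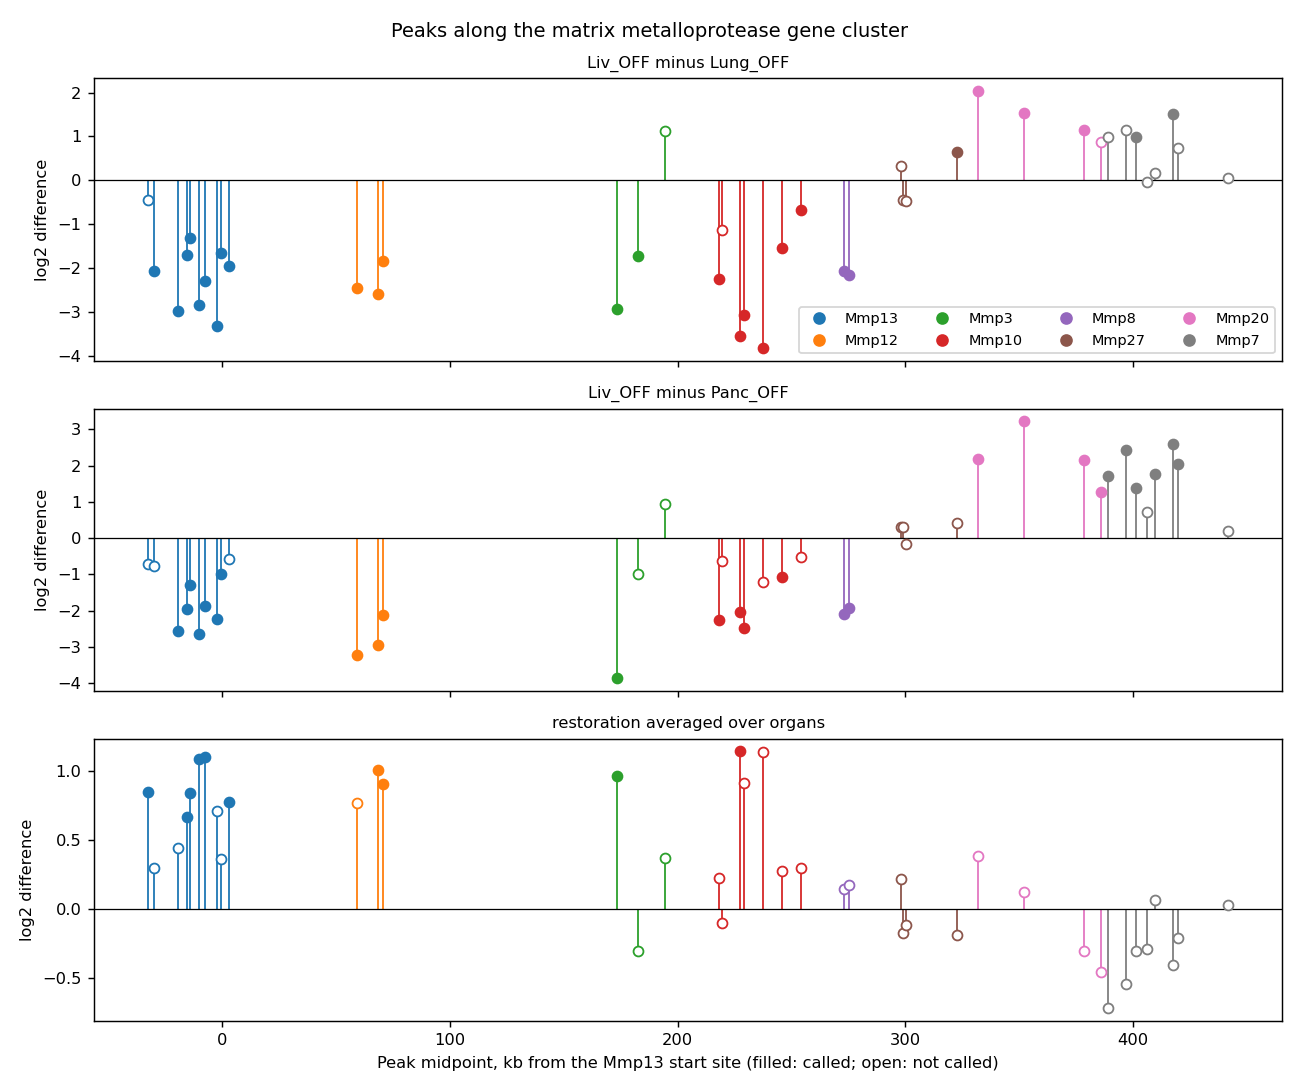
Log2 difference of each peak (vertical axis) against the distance of its midpoint from the Mmp13 start site in kb (horizontal axis), for 2 organ comparisons with Smad4 OFF and for the restoration averaged over organs, with filled points for called peaks. Peaks of Mmp13 through Mmp8 lie below 0 in the liver comparisons with 1 exception at Mmp3, and those of Mmp20 and Mmp7 lie at or above 0 with 1 exception of -0.03 against Lung_OFF.

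Mmp13 encodes collagenase 3, which cleaves fibrillar collagens. Its upstream peak (chr9:7261346-7263831) had normalised counts of 27.2 and 59.9 in Liv_OFF, 265, 254 and 375 in Lung_OFF, and 206, 299 and 273 in Panc_OFF. Both liver samples lay below every lung and pancreatic sample, by -2.83 ± 0.37 (log2, SE) against Lung_OFF (limma adjusted p = 5.71e-05) and -2.64 ± 0.37 against Panc_OFF (limma adjusted p = 4.84e-05). The peak was chosen among called peaks without overlap of replicates, so this separation is not a further result. The peak over the Mmp13 start site and its AP-1 element had 56.8 and 54.3 in Liv_OFF, 207, 141 and 186 in Lung_OFF and 103, 121 and 109 in Panc_OFF. Here too the liver samples were lowest, with a difference of -1.65 ± 0.37 against Lung_OFF (limma adjusted p = 0.00204). In all, 9 of 10 Mmp13 peaks were lower in Liv_OFF than in Lung_OFF, with differences from -3.31 to -0.44 over the 10.

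Mmp3 and Mmp10 encode stromelysins, proteases of broad range that also activate other proenzymes. The Mmp3 start-site peak (chr9:7445619-7445818) was weak, at 0 and 1.39 in Liv_OFF, 8.28, 7.61 and 19.0 in Lung_OFF and 20.5, 19.7 and 24.1 in Panc_OFF. The liver counts were close to no reads, and the difference was -2.92 ± 0.54 against Lung_OFF (limma adjusted p = 0.000567) and -3.85 ± 0.54 against Panc_OFF (limma adjusted p = 4.72e-05). The Mmp10 start-site peak (chr9:7501155-7502429) had 6.17 and 12.5 in Liv_OFF, 148, 32.6 and 112 in Lung_OFF and 49.5, 61.6 and 50.9 in Panc_OFF. It was lower by -3.07 ± 0.67 in the liver than in the lungs (limma adjusted p = 0.0017), although Lung_OFF 2 lay well below the other lung samples. A small peak 2.13 kb upstream of Mmp10 had no reads in either Liv_OFF sample, and 13.8, 6.52 and 12.9 in Lung_OFF. The strongest Mmp10 peak, 23.5 kb away, was less different, at 341 and 398 in Liv_OFF against 474, 539 and 799 in Lung_OFF (-0.67 ± 0.25, limma adjusted p = 0.0365).

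Mmp12 (macrophage elastase) and Mmp8 (neutrophil collagenase) are best known from leukocytes, and each was lower in the liver. The leukocyte marker start sites, of which only 2 of 6 had a peak, were highest in the liver (ranges above), and their part was not tested. The Mmp12 locus sum was 9.87 and 11.1 in Liv_OFF, 42.3, 33.7 and 105 in Lung_OFF and 75.2, 65.2 and 75.9 in Panc_OFF. Both liver samples were below all others, by -2.24 ± 0.47 against Lung_OFF (limma adjusted p = 0.0012). The Mmp8 peak 12.7 kb from its start had 6.17 and 12.5 in Liv_OFF, 38.7, 32.6 and 50.8 in Lung_OFF and 43.6, 34.8 and 46.3 in Panc_OFF, and was lower in the liver by -2.06 ± 0.41 than in the lungs (limma adjusted p = 0.000985).

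Mmp20 (enamelysin, a protease of enamel formation) and Mmp7 (matrilysin, a small epithelial MMP) showed the other pattern. An Mmp20 peak 23.8 kb from the start had 37.0 and 72.4 in Liv_OFF, 11, 12 and 12.9 in Lung_OFF and 8.54, 17.0 and 8.33 in Panc_OFF. The liver samples were above all others, by 2.03 ± 0.46 against Lung_OFF (limma adjusted p = 0.00216). The Mmp7 start-site peak, which covers its AP-1 element, had 100 and 110 in Liv_OFF, 30.4, 93.5 and 87.0 in Lung_OFF, and 17.9, 38.4 and 21.3 in Panc_OFF. The liver counts were above those of the pancreas and of every lung sample. Its difference from Panc_OFF was 2.05 ± 0.45 (limma adjusted p = 0.0012), whereas against Lung_OFF it was 0.73 ± 0.45 and did not pass the test (limma adjusted p = 0.188).

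Among the other secreted MMPs, Mmp19 was lower and Mmp23 higher in the liver, and Mmp28 had 2 of 5 peaks higher. The strongest Mmp19 peak (chr10:128778879-128781278, intergenic, 9.63 kb from the start) had 347 and 454 in Liv_OFF, 1509, 917 and 1588 in Lung_OFF and 1276, 1680 and 1720 in Panc_OFF. The liver samples had the lowest counts of the 8 Smad4 OFF samples, by -1.71 ± 0.23 against Lung_OFF (limma adjusted p = 7.48e-05). The Mmp23 start-site peak (chr4:155654223-155655495), which lies within Mib2, had 1193 and 1259 in Liv_OFF, 436, 584 and 514 in Lung_OFF and 437, 504 and 475 in Panc_OFF. The difference from Lung_OFF was 1.27 ± 0.19 (limma adjusted p = 0.000148). Broad signal within 5 Mb of Mmp23 was itself higher by 0.43 in Liv_OFF, and after each sample was centred on that signal the peak differed by 0.84. An Mmp28 (epilysin) intron peak had 1403 and 1559 in Liv_OFF against 572, 877 and 689 in Lung_OFF (1.07 ± 0.16, limma adjusted p = 0.000117), but the Mmp28 locus sum, which differed by 0.54, was not called.

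The gelatinases Mmp2 and Mmp9 differed from each other. Mmp2, which acts on gelatin and type IV collagen and is widely made by stromal cells, had a locus sum of 131, 130 and 180 in Panc_OFF, 24.7 and 15.3 in Liv_OFF and 33.1, 16.3 and 19.8 in Lung_OFF. It was high in each pancreatic OFF sample and low in both metastatic sites, by -2.84 ± 0.52 in the liver (limma adjusted p = 0.00041) and -2.66 ± 0.47 in the lungs (limma adjusted p = 0.0098). Fibroblast marker start sites moved the same way (ranges above), and their part in the result was not tested. For Mmp9, 3 of 5 peaks were lower and 1 was higher in Liv_OFF than in Lung_OFF, and its locus sum did not pass the test in any of the 3 organ comparisons.

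The membrane-type MMPs held members with opposite differences. Mmp15 (MT2-MMP) had 8 of 11 peaks higher in Liv_OFF than in Lung_OFF and 9 of 11 higher than in Panc_OFF. Its start-site peak (chr8:95351423-95355303) had 2381 and 2157 in Liv_OFF, 699, 1229 and 890 in Lung_OFF and 851, 1012 and 892 in Panc_OFF. Both liver samples exceeded every other Smad4 OFF sample, by 1.31 ± 0.19 against Lung_OFF (limma adjusted p = 0.000129). In Liv_OFF, broad signal within 5 Mb of Mmp15 was higher by 0.28 than in Lung_OFF and by 0.24 than in Panc_OFF. Mmp16 (MT3-MMP) had all 4 peaks lower in Liv_OFF than in Lung_OFF and than in Panc_OFF, and broad signal within 5 Mb of it was lower as well, by -0.39 against Lung_OFF and -0.78 against Panc_OFF. Mmp14 (MT1-MMP, an activator of pro-MMP2) had no peak called between liver and lung, but an intron peak (chr14:54442958-54444233) had 389, 495 and 745 in Panc_OFF, 80.2 and 39.0 in Liv_OFF and 22.1, 22.8 and 29.3 in Lung_OFF. This peak was lower than in the pancreas by -3.20 ± 0.59 in the liver (limma adjusted p = 0.000335) and by -4.36 ± 0.52 in the lungs (limma adjusted p = 0.00032). The fibroblast marker start sites moved the same way, and their part was not tested. Mmp17, a GPI-anchored member, had neither of its 2 peaks called in any Smad4 OFF comparison.

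Of the 4 inhibitors, Timp1 had a lower locus sum in the liver than in the lungs and the pancreas, Timp3 had a higher one in the pancreas than in either metastatic site, and those of Timp2 and Timp4 were not called in any Smad4 OFF comparison. Timp1, a broad MMP inhibitor, was lowest in the liver, with start-site counts of 364 and 385 in Liv_OFF, 990, 639 and 822 in Lung_OFF and 933, 970 and 1063 in Panc_OFF (chrX:20867247-20871287, within Syn1). The differences were -1.10 ± 0.16 against Lung_OFF (limma adjusted p = 0.000112) and -1.40 ± 0.16 against Panc_OFF (limma adjusted p = 1.29e-05). Timp2, which takes part in the activation of pro-MMP2, had 1 of 7 peaks lower, an intergenic peak 9.39 kb from the start with 702 and 692 in Liv_OFF against 1446, 1311 and 1436 in Lung_OFF (limma adjusted p = 1.92e-05) and 1376, 1407 and 1579 in Panc_OFF (-1.06 ± 0.11, limma adjusted p = 7.23e-06). Timp4 had 4 of 7 peaks lower and 1 higher in Liv_OFF than in Lung_OFF, and the same counts against Panc_OFF. Timp3, which binds to the matrix and inhibits ADAMTS proteases also, was high in the pancreas. Its start-site peak (chr10:86300164-86300972) had 220, 244 and 319 in Panc_OFF, 62.9 and 57.1 in Liv_OFF and 17.5, 36.9 and 66.3 in Lung_OFF. The pancreatic samples stood above all others, with differences of -2.09 ± 0.51 in the liver (limma adjusted p = 0.00273) and -2.84 ± 0.46 in the lungs (limma adjusted p = 0.00126). In each metastatic site 22 of 27 Timp3 peaks were lower than in Panc_OFF, where 32.3% (liver) and 10.7% (lungs) of all peaks were called lower. All 27 lie inside Syn3, the gene that hosts Timp3 in an intron. Another Timp3 peak, in a Syn3 intron 9.72 kb from the start, was the reverse, with 185 and 254 in Liv_OFF against 29.5, 65.2 and 57.7 in Lung_OFF (2.15 ± 0.42, limma adjusted p = 0.000839).

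**Figure D3:**
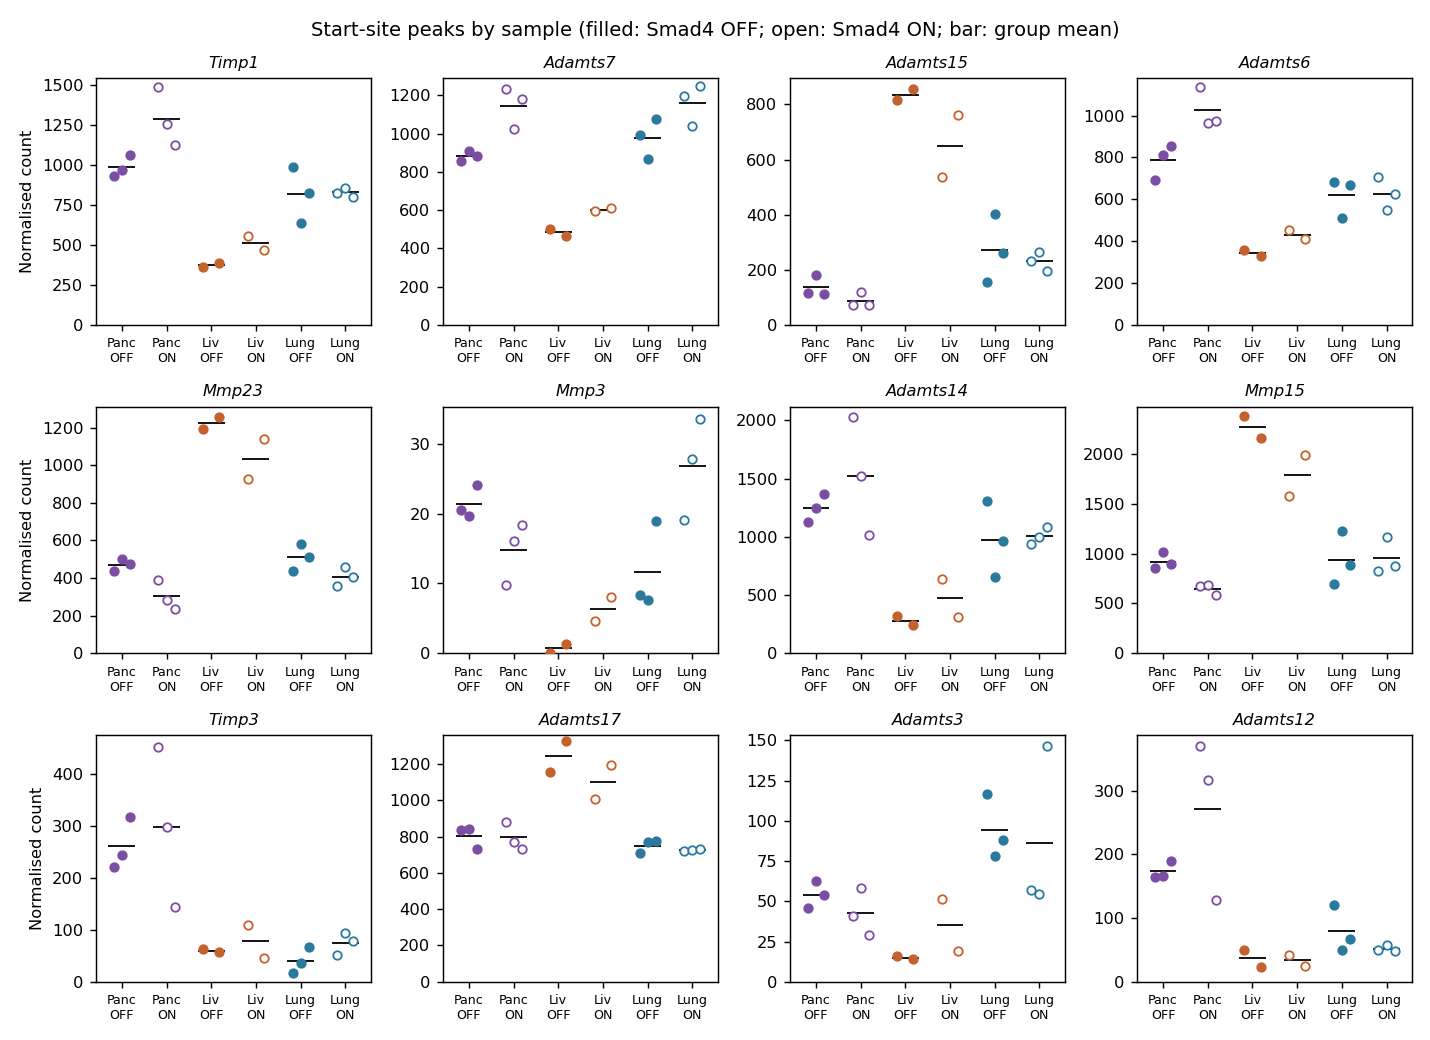
Normalised counts (vertical axes, from 0) of the start-site peaks of 12 members in each sample of the 6 groups, with a bar at the group mean. Liv_OFF is lowest for Timp1, Adamts7, Adamts6, Mmp3, Adamts14 and Adamts3 and highest for Adamts15, Mmp23, Mmp15 and Adamts17 among the Smad4 OFF groups, and Timp3 and Adamts12 are highest in Panc_OFF.

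The procollagen N-proteinases Adamts2, Adamts3 and Adamts14 were all lower in the liver. Adamts3 had 14 of 15 peaks lower in Liv_OFF than in Lung_OFF, with differences from -4.58 to -1.36. Its locus sum was 153 and 145 in Liv_OFF, 1844, 784 and 1596 in Lung_OFF and 676, 880 and 686 in Panc_OFF. Both liver samples were far below the rest, by -3.14 ± 0.48 against Lung_OFF (limma adjusted p = 0.00022) and -2.31 ± 0.48 against Panc_OFF (limma adjusted p = 0.0011). The Adamts14 start-site peak (chr10:61271759-61276161) had 317 and 240 in Liv_OFF, 1305, 653 and 968 in Lung_OFF and 1130, 1243 and 1371 in Panc_OFF (-1.76 ± 0.31 against Lung_OFF, limma adjusted p = 0.000366). For Adamts2 the order was Panc_OFF, Lung_OFF and Liv_OFF, with locus sums of 2522, 2984 and 3231, then 1387, 937 and 1479, then 741 and 506. Each step passed the test, at -1.22 ± 0.35 between lung and pancreas (limma adjusted p = 0.063) and -1.02 ± 0.39 between liver and lung (limma adjusted p = 0.038). Within the gene, a weak intron peak ran against the sum, at 14.8 and 11.1 in Liv_OFF against 5.52, 3.26 and 4.31 in Lung_OFF and 54.7, 75.9 and 88.9 in Panc_OFF.

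Of the proteoglycanase ADAMTS genes, Adamts15 had the most peaks higher in the liver. Of its 12 peaks, 11 were higher than in Lung_OFF and all 12 higher than in Panc_OFF, with differences from 1.07 to 2.20 and from 1.23 to 3.95. The start-site peak (chr9:30920810-30923008) had 816 and 855 in Liv_OFF, 155, 401 and 261 in Lung_OFF and 116, 181 and 111 in Panc_OFF. The liver exceeded the lungs by 1.72 ± 0.34 (limma adjusted p = 0.000848) and the pancreas by 2.64 ± 0.34 (limma adjusted p = 2.46e-05). Broad signal within 5 Mb of Adamts15 differed by 0.01 and 0.11 in these comparisons. Adamts5, an aggrecanase, was instead high in the pancreas, with locus sums of 512, 733 and 834 in Panc_OFF, 228 and 135 in Liv_OFF and 191, 153 and 329 in Lung_OFF. All 8 of its peaks were lower in each metastatic site, and the locus differed by -1.95 ± 0.35 in the liver (limma adjusted p = 0.00042) and -1.67 ± 0.32 in the lungs (limma adjusted p = 0.015). The start-site peak of Adamts4, also an aggrecanase, had 114, 125 and 157 in Panc_OFF, 23.4 and 9.75 in Liv_OFF and 16.6, 6.52 and 17.2 in Lung_OFF (-3.30 ± 0.54 in the lungs, limma adjusted p = 0.00143). Adamts20 was weak outside the pancreas, with locus sums of 66.6, 88.4 and 140 in Panc_OFF, 14.8 and 4.18 in Liv_OFF and 20.3, 10.9 and 10.3 in Lung_OFF. For Adamts1, 8 of 14 peaks were lower in Liv_OFF than in Lung_OFF while its locus sum was not called.

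Of the 8 remaining ADAMTS genes with peaks, 4 had lower locus sums in Liv_OFF than in Lung_OFF (Adamts12, Adamts18, Adamts6 and Adamts7) and none a higher one. Adamts12, a protease reported to cleave cartilage oligomeric matrix protein, had locus sums of 160 and 104 in Liv_OFF, 909, 450 and 476 in Lung_OFF and 881, 922 and 1039 in Panc_OFF. The liver samples were lowest, by -2.15 ± 0.46 against Lung_OFF (limma adjusted p = 0.0018) and -2.86 ± 0.46 against Panc_OFF (limma adjusted p = 0.00021). Broad signal within 5 Mb of Adamts12 was lower by -0.44 and -0.53 in the same comparisons, and after centring on it the start-site peak no longer passed the test against Lung_OFF (-0.64). The Adamts7 start-site peak (chr9:90162373-90165896) had 501 and 465 in Liv_OFF, 990, 865 and 1079 in Lung_OFF and 857, 908 and 884 in Panc_OFF (-1.01 ± 0.12 against Lung_OFF, limma adjusted p = 3.6e-05). In Liv_OFF, broad signal within 5 Mb of Adamts7 was lower as well, by -0.32 against Lung_OFF and -0.39 against Panc_OFF. A further Adamts7 peak, 44.5 kb downstream and inside Tbc1d2b, ran the other way, at 370 and 220 in Liv_OFF, 55.2, 112 and 85.3 in Lung_OFF and 23.1, 30.4 and 29.6 in Panc_OFF (3.33 ± 0.33 against Panc_OFF, limma adjusted p = 6.65e-06). Adamts16 resembled Timp3, with 11 of 15 peaks lower in the liver and 7 of 15 lower in the lungs than in Panc_OFF. The Adamts17 start-site peak was modestly higher in the liver, at 1159 and 1328 against 710, 769 and 774 in Lung_OFF (0.72 ± 0.12, limma adjusted p = 0.000257).

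**Figure D4:**
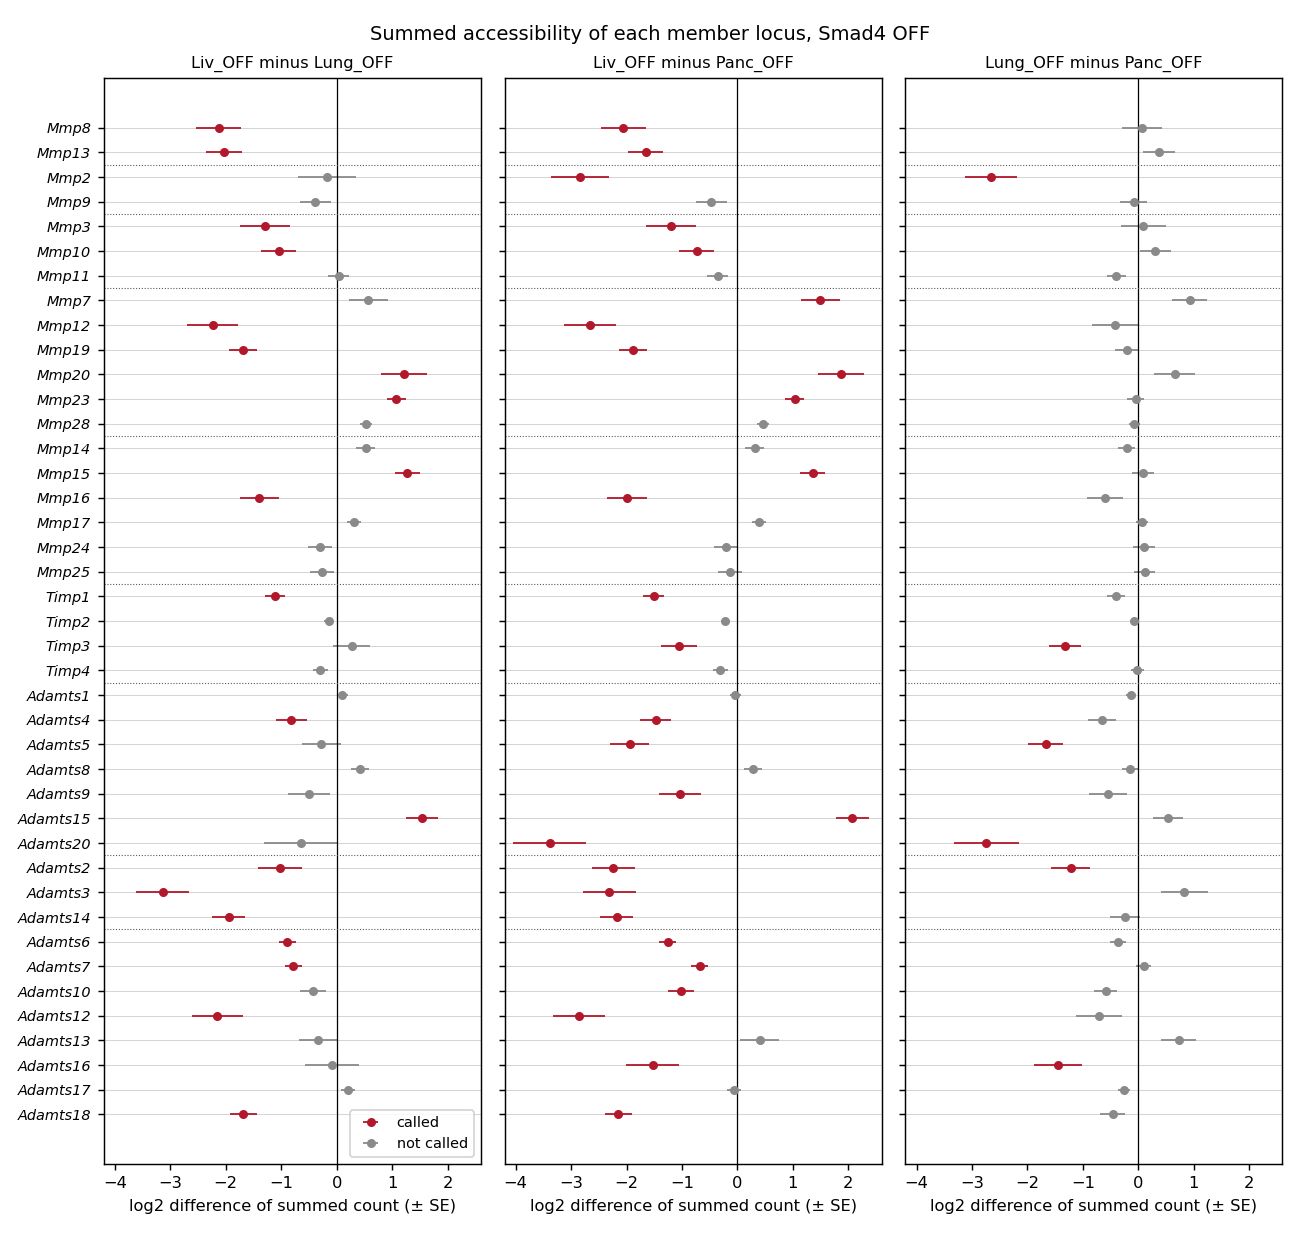
Log2 difference of the locus sum (horizontal axes, ± SE) for 41 member genes in the 3 Smad4 OFF organ comparisons, in red where called, with dotted lines between the gene groups. In Liv_OFF, 16 loci were lower and 4 higher than in Lung_OFF, 23 lower and 5 higher than in Panc_OFF, and 6 loci were lower in Lung_OFF than in Panc_OFF.

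Taken by locus, 16 members were lower and 4 higher (Adamts15, Mmp15, Mmp20 and Mmp23) in Liv_OFF than in Lung_OFF, where 11.8% of 17795 loci were called lower and 20.4% higher. The median member locus differed by -0.33 while the median over all loci was 0.30, so the scale of the sums was itself shifted upward in the liver. Against Panc_OFF, 23 loci were lower and 5 higher in the liver (13% and 23.8% of all loci, and 36.8% in either direction), and the same upward shift of 0.30 applied. Between the lungs and the pancreas 6 loci were lower, Adamts20, Mmp2, Adamts5, Adamts16, Timp3 and Adamts2, and none was higher (3.21% and 2.53% of all loci, and 5.74% in either direction). Without Panc_OFF 3, the 2 loci called were Mmp2 and Adamts5. At the level of peaks, 166 were lower and 49 higher in Liv_OFF than in Panc_OFF (32.3% and 26.2% of all peaks, and 58.5% in either direction). In Lung_OFF 69 were lower and 25 higher than in Panc_OFF, where 10.7% of all peaks were called lower, 6.59% higher and 17.3% in either direction. The 3 comparisons share samples in pairs. The fibroblast marker start sites were also lower in both metastatic sites, 103 to 205 in the liver and 147 to 437 in the lungs against 470 to 1206 in the pancreas, and their part in the 23 loci lower in the liver and the 6 lower in the lungs was not tested.

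**Figure D5:**
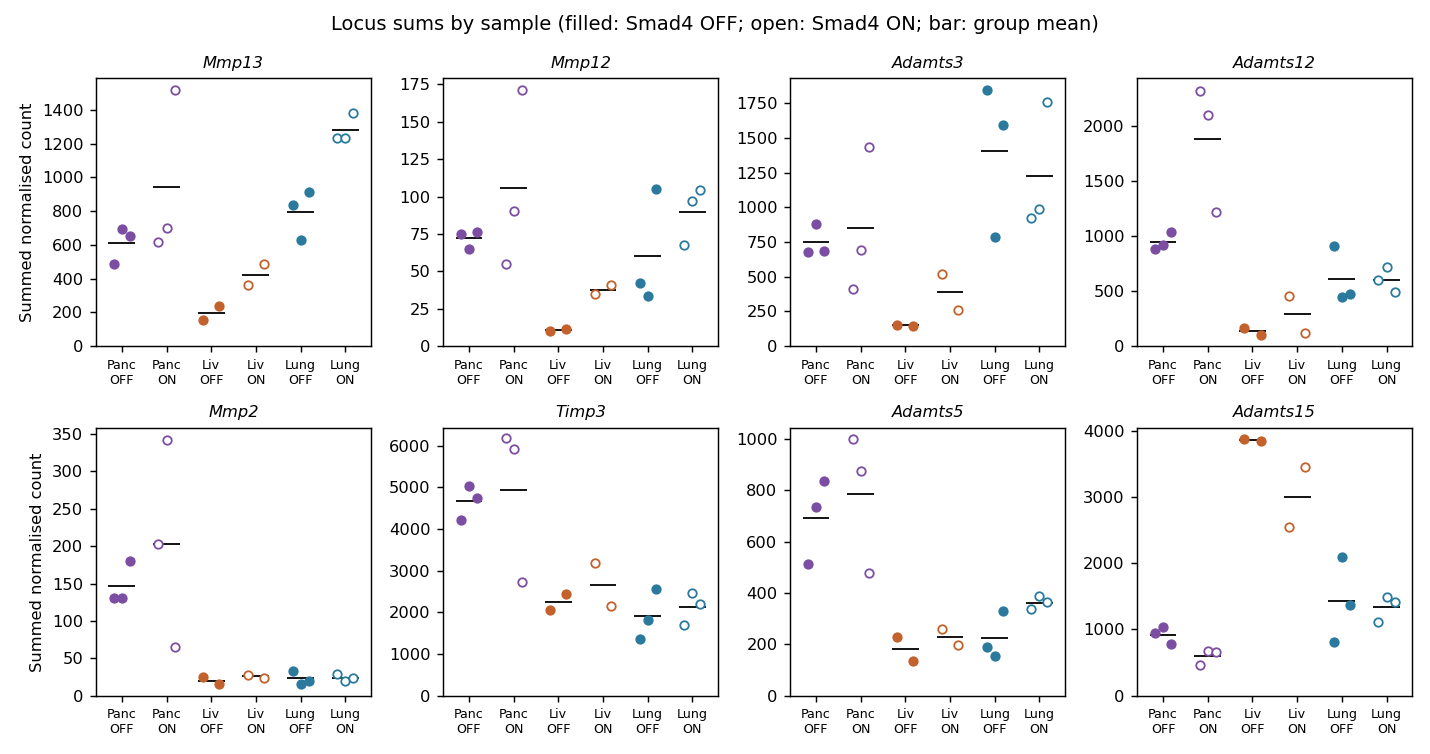
Locus sums (vertical axes, from 0) of 8 members in each sample of the 6 groups, with a bar at the group mean. Mmp13, Mmp12, Adamts3 and Adamts12 are lowest in Liv_OFF, Mmp2, Timp3 and Adamts5 are high in most pancreatic samples, and Adamts15 is highest in the liver, while the library labelled Panc_ON 3 lies apart from the other Panc_ON samples in several members.

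With Smad4 restored, member peaks were again more often lower than higher in the liver. In Liv_ON, 80 member peaks were lower and 26 higher than in Lung_ON, where 18.2% of all peaks were called lower, 17.6% higher and 35.8% in either direction. Against Panc_ON, 153 were lower and 50 higher in Liv_ON (32.2% and 27.1% of all peaks, and 59.4% in either direction). In Lung_ON, 81 were lower and 38 higher than in Panc_ON (14.9% and 12.8% of all peaks, and 27.8% in either direction). Adamts3 had 12 of 15 peaks lower in Liv_ON than in Lung_ON, Mmp13 7 of 10, Mmp15 7 of 11 higher and Adamts15 6 of 12 higher. At the Mmp13 to Mmp8 end of the cluster 15 of 25 peaks were lower and 1 higher, and at the Mmp20 and Mmp7 end 4 of 12 were higher. Liv_ON 2 weighed on the calls between Liv_ON and Lung_ON, which fell without it among the members and over all peaks alike. Leaving it out left a single sample in Liv_ON.

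Restoration of Smad4 within an organ changed few member peaks. In the pancreas 2 were higher and 10 lower, where 0.364% of all peaks were called higher, 3.06% lower and 3.42% in either direction. After GC correction none was higher and 4 were lower (1.93% of all peaks called). With the lung replicate numbers as a block 7 were higher and 15 lower (6.51% of all peaks called). In the liver no member passed the limma test (0.55% of all peaks called, 0.0886% lower), and none did in the lungs (0.00366% of all peaks called, 0.00146% higher and 0.0022% lower). With the lung block, 3 passed in the liver (1.47% of all peaks). At an unadjusted p under 0.05 45 of 281 member peaks were found in the liver (16.01%, against 12.1% of all peaks) and 27 in the lungs (9.61%, against 7.11%). edgeR called no member in either organ, and DESeq2 called 5 in the liver and 1 in the lungs, where it called 4.52% and 0.905% of the peaks it tested. The lowest pancreatic p-values were those of Timp4, Mmp23 and Mmp15. A Timp4 exon peak, also inside Syn2, had 48.7, 62.5 and 32.4 in Panc_OFF and 14.2, 24.8 and 12.3 in Panc_ON (-1.45 ± 0.32, limma adjusted p = 0.0358). An Mmp23 intron peak had 182, 195 and 206 in Panc_OFF and 98.7, 87.9 and 76.6 in Panc_ON (-1.14 ± 0.26, limma adjusted p = 0.0365). The groups did not overlap in either peak, and Mmp23 was also the only member whose locus sum changed with restoration in an organ (-0.72 ± 0.15, limma adjusted p = 0.042). The higher peaks were in Mmp25 (MT6-MMP), at 4.27, 3.57 and 2.78 in Panc_OFF and 13.3, 11.1 and 42.2 in Panc_ON, and upstream of Adamts12, at 58.1, 66.1 and 49.1 and then 77.3, 142 and 121. Neither of these 2 calls held without Panc_ON 3, and that of Mmp25 was lost without any 1 of the 6 pancreatic samples. Leaving out samples in turn gave between 0 and 8 calls in the pancreas, with 0 without Panc_OFF 2, 1 without Panc_OFF 1 or Panc_OFF 3 and 4 without Panc_ON 1 or Panc_ON 2. Panc_ON 3 had a fibroblast marker sum of 470, the lowest of the pancreatic samples, with locus sums of 65.2 for Mmp2 (203 and 342 in the other Panc_ON samples) and 1518 for Mmp13 (617 and 698).

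Averaged over the 3 organs, 19 member peaks were higher and 7 lower with Smad4 ON (6.62% of all peaks called, 3.61% higher and 3% lower). After quantile normalisation 12 were higher and 8 lower. Of the higher peaks, 10 lay in the 25 from Mmp13 to Mmp8, with 6 at Mmp13, 2 at Mmp12 and 1 each at Mmp3 and Mmp10, and no peak at the Mmp20 and Mmp7 end was called. The Mmp13 upstream peak had 257, 319 and 718 in Panc_ON, 109 and 144 in Liv_ON and 610, 582 and 630 in Lung_ON, set against the Smad4 OFF counts given above. Both liver and all 3 lung samples were above their Smad4 OFF counterparts, while in the pancreas the groups overlapped. The averaged difference was 1.09 ± 0.21 (limma adjusted p = 0.0104). At the Mmp3 start site the counts were 9.78, 16.1 and 18.4 in Panc_ON, 4.66 and 8.12 in Liv_ON and 19.1, 27.8 and 33.6 in Lung_ON, with an averaged difference of 0.96. All Smad4 ON counts exceeded the Smad4 OFF counts in the liver and the lungs and lay below them in the pancreas, and the peak was not called within any organ. The Mmp13 start-site peak itself was not called (0.36 ± 0.20, limma adjusted p = 0.309).

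Outside the cluster, Adamts12 had 3 of 10 peaks higher in the averaged comparison. The largest difference was at an intron peak (chr15:11086487-11086807) with 22.2, 25.9 and 18.5 in Panc_OFF and 96.0, 91.6 and 82.8 in Panc_ON, 1.23 and 0 against 10.5 and 2.03 in the liver, and 35.0, 2.17 and 4.31 against 24.7, 19.2 and 11.2 in the lungs (1.70 ± 0.45, limma adjusted p = 0.0386). Groups were apart in the pancreas and the liver and overlapped in the lungs. A Timp4 peak 48.2 kb upstream had 3.70 and 4.18 in Liv_OFF and 19.8 and 17.3 in Liv_ON (averaged difference 1.34 ± 0.29, limma adjusted p = 0.0183), and an Adamts1 peak 23.0 kb upstream had 93.8 and 123 against 188 and 237 in the liver and 311, 188 and 255 against 480, 436 and 429 in the lungs (0.81 ± 0.19, limma adjusted p = 0.0242). The 7 lower peaks belonged to Adamts15 (2), Adamts2, Adamts9, Adamts16, Mmp15 and Timp4. The Adamts2 intron peak had 48.7, 42.9 and 50.9 in Panc_OFF against 12.4, 16.1 and 25.3 in Panc_ON, and 81.5 and 61.3 against 44.3 and 33.5 in the liver (-1.01 ± 0.23, limma adjusted p = 0.0204). Adamts15, which was highest in the liver, had a peak at 230 and 266 in Liv_OFF against 118 and 148 in Liv_ON (-0.82 ± 0.22, limma adjusted p = 0.0382). Single libraries moved these counts, from 26 calls to 13 without Lung_OFF 2, 14 without Panc_OFF 2, 17 without Panc_OFF 1 or Lung_ON 1, and 43 without Lung_OFF 1. The share of all peaks called moved alongside, from 6.62% to 3.89%, 4.60%, 4.75% or 4.47%, and 11.9%. Leaving out Liv_OFF 1, Liv_OFF 2 or Liv_ON 1 also lowered the calls, among members and over all peaks, but left a single sample in the group.

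Whether restoration acted differently between organs was tested by interaction terms, and no member peak and no other peak was called for liver against lungs, liver against pancreas or lungs against pancreas. At an unadjusted p under 0.05 there were 15, 14 and 29 of the 281 member peaks (5.34%, 4.98% and 10.3%), near the 5.25%, 3.95% and 10.96% of all peaks. edgeR called none, DESeq2 called 3 members for lungs against pancreas (2.54% of the peaks it tested), and limma with the lung replicate numbers as a block also called 3 there (1.75% of all peaks). Without Lung_OFF 2 limma called 10 for lungs against pancreas (2.93% of all peaks). The restoration medians at the Mmp13 end of the cluster were 1.09 in the liver, 0.36 in the lungs and 0.46 in the pancreas, and these medians were not tested against each other.

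Peaks of the members resembled other peaks in width (median 596 against 588 bp) and GC content (47.2% against 45.9%). Of the 281 peaks, 43.8% were intronic, 39.1% intergenic, 12.5% within 1 kb of a start site and 4.63% exonic. The AP-1 letters TGANTCA were found in 49.5% of member peaks and 51.4% of all peaks, and TGTGGT or its complement (RUNX), which can share at most an end base with TGANTCA, in 51.2% and 48.8%. Among the members, AP-1 letters occurred in 65.2% of the 115 peaks lower in Liv_OFF than in Lung_OFF, in 28.9% of the 45 higher and in 42.1% of those not called. All peaks had the same order, at 71.4% of the lower, 36.9% of the higher and 47.3% of those not called. By group, the stromelysins held the AP-1 letters in 75.0% of their 12 peaks and the collagenases in 58.3% of 12.

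Other genes of matrix proteolysis, taken from a list of context genes, had 55 peaks higher and 81 lower of 254 between Liv_OFF and Lung_OFF, shares near those of all peaks (22.9% and 26.8%). Genes of plasminogen activation, a cascade that activates several pro-MMPs, had 13 higher and 13 lower of 43, with Plau (urokinase) 8 of 15 higher and Serpine2 6 of 6 lower. Proprotein convertases, which cleave the propeptide of membrane-type MMPs and of ADAMTS proteases, had 21 higher and 8 lower of 55, with Pcsk5 13 of 19 higher. ADAMTS-like genes, which lack the protease domain, had 24 lower and 6 higher of 42, with Adamtsl3 18 of 21 lower. Proteoglycan substrates (Acan, Vcan, Bcan and Ncan) had 12 of 28 lower and none higher. The start-site peak of Bsg, whose product basigin induces MMPs, had 1534 and 1588 in Liv_OFF and 917, 1006 and 975 in Lung_OFF (0.69 ± 0.10, limma adjusted p = 0.000142), and that of Adam8, a sheddase, had 703 and 832 against 267, 341 and 325 (1.30 ± 0.18, limma adjusted p = 8.01e-05). In both, the liver samples lay above all lung samples. In the averaged restoration 15 of the 254 context peaks were higher and 2 lower (3.61% and 3% of all peaks), with Plau and Adam12 at 3 each.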

How the data were processed

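Bulk ATAC-seq of sorted mKate2+ cells was taken from a table of 16 columns, which name doxycycline status (on was read as Smad4 OFF). Per the study's methods, the authors trimmed reads with Trim Galore and cutadapt before Bowtie2 alignment to mm10, used MACS2 for peaks, filtered these on their p-value and the ENCODE blacklist, merged them into a common atlas, counted reads with featureCounts and deposited the signal as counts divided by DESeq2 size factors. The submitters' processing notes also name FastQC 0.11.5. Duplicate removal, and what the word filtered in the table's name refers to, are not given in the sources used here. Whole reads were recovered for 100% of values (tolerance 0.01 read). The mitochondrial row (1.43% to 3.56% of reads, highest in Liv_OFF at 3.06% and 3.56%) was left out.

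The main test was limma 3.58.1 (R 4.3.3, trend and robust) on log2(normalised count + 1), which understates changes of low peaks, with a mean per group over all 16 samples. Calls used the study's thresholds, a log2 difference of 0.58 and an adjusted p of 0.1. Locus sums were tested alike over 17795 genes. Replicates were separate mice. edgeR 4.0.16 and DESeq2 1.42.0 on the recovered reads, other scalings, filters and left-out samples were alternatives, and scripts were tested on simulated data. The members and lists were chosen with earlier results of these data known, and genes were taken from a fixed list. Named peaks were the start-site peaks called in an organ comparison (up to 12), and up to 5 restoration peaks per direction. The 5 most different loci per direction were also named. For each gene group, Smad4 OFF organ comparison and direction, the called peak of smallest p without overlap of replicates was added. Separation of replicates in such peaks, as at upstream Mmp13, Mmp19 and Mmp15, was therefore set by the choice. The share of all peaks without overlap is not given here. Other peaks, at the chromosome 9 cluster above all, were chosen after their values were seen. Broad signal is the median deviation of other genes' peaks within 5 Mb. Between Liv_OFF and Lung_OFF it differed by -0.44 (Adamts12) to 0.43 (Mmp23) over the members. Correlations of the deviations of same-numbered samples were 0.49, 0.12 and 0.21 in the lungs, -0.33, 0.03 and -0.33 in the pancreas and 0.08 in the liver. Numbers were taken from these values to pair samples in the lungs only. The labels give no pairing, and the 0.12 of lung replicate 2 was near the 0.08 of the liver.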

Additional observations from a re-analysis of the deposited data

How the results depend on the processing

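The 111 named values were recomputed 1881 times, and 1725 of these kept direction and side of the threshold, 152 lost the call, 4 gained it and none turned. Liver samples number 2 per Smad4 state, so calls there rest on the spread of all groups, low peaks are limited by few reads, and assignment by the nearest start site does not show which gene a peak regulates. Member counts in the organ comparisons changed by over 1.5 times under no alternative scaling, filter or count test. With start-site peaks only (33 peaks), 18 were called for Liv_OFF minus Lung_OFF (49.7% of all peaks) and 26 for Liv_OFF minus Panc_OFF (58.5%). For Lung_OFF minus Panc_OFF 7 were called (17.3% of all peaks). There were 11 for Liv_ON minus Lung_ON (35.8%), 22 for Liv_ON minus Panc_ON (59.4%) and 11 for Lung_ON minus Panc_ON (27.8%). Restoration gave 1 in the pancreas (3.42% of all peaks) and 2 for the average (6.62%). The share among all start-site peaks of the genome is not given here. Restoration in the pancreas (12) gave 2 at a log2 difference of 1 and adjusted p of 0.05, 4 after GC correction (0 higher and 4 lower), 19 with DESeq2 and 22 with a replicate block in the lungs only. Restoration in the liver (0) gave 1 with TMM factors, 1 with local centring, 2 with the replicate block, 3 with the block in the lungs only and 5 with DESeq2. Restoration in the lungs (0) gave 1 with DESeq2 and 0 with the replicate block. The average (26) gave 15 with a pseudocount of 10 and 6 at the stricter thresholds, and 12 higher and 8 lower with quantile normalisation. Lungs against pancreas (0) gave 3 with the block in the lungs only and 3 with DESeq2. Locus calls for pancreatic restoration (1) were 0 at the stricter thresholds and 3 with the compared groups alone, and for liver restoration (0) 7 with the compared groups alone.

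Leaving out 1 sample in turn gave 51 to 94 calls for Lung_OFF minus Panc_OFF (60 without Panc_OFF 2 and 51 without Panc_OFF 3), 45 to 110 for Liv_ON minus Lung_ON, 0 to 8 for pancreatic restoration, 0 to 11 for liver restoration (3 without Liv_OFF 2 and 11 without Liv_ON 2), 7 to 43 for the average, and 0 to 10 for lungs against pancreas (10 without Lung_OFF 2). Locus calls ran from 2 to 9 for Lung_OFF minus Panc_OFF (2 without Panc_OFF 3), from 0 to 1 for pancreatic restoration (0 without Panc_OFF 2, Panc_OFF 3 or Panc_ON 2) and from 0 to 1 for liver restoration (1 without Liv_ON 2). The replicate block changed no other count of calls by over 1.5 times, and the block in the lungs only was chosen after seeing the data for all but the lung restoration.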
